A study of Mus musculus with 4 samples.

Results

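The genes described here are 10 members of the interleukin 1 family of mouse: the ligand genes Il1a, Il1b, Il18 and Il33, the receptor antagonist gene Il1rn, the decoy receptor gene Il1r2, and the receptor genes Il1r1, Il18r1, Il18rap and Il1rl1. They were taken by name from the 20640 gene columns of each table, and all 10 were present in each of the 4 tables. They were followed across cell types that were gated on marker genes, with 4 Gy set against 0 Gy within each sort.

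The lungs came from C57BL/6 females, 8 weeks old when 150000 HKP1 cells were injected into the tail vein. HKP1 is a mouse lung adenocarcinoma line. Both the irradiated and the mock-treated mice had received it, and no tumour-free group is among the samples. In the 4 Gy groups a dose of 4 Gy was given daily from day 10 through day 12 (3 doses), and the 0 Gy groups were mock-treated. Mice had been assigned by bioluminescence on day 6. Harvest was 24 to 48 h past the final dose, and live (DAPI-negative) lung cells were sorted into CD45-negative cells, which are those outside the blood lineage, and CD45-positive leukocytes. Each sort and dose gave 1 library of 10x Genomics 3′ single-cell RNA sequencing, from 4 mice per treatment, and the labels do not tie cells to mice.

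IL-1α, IL-1β, IL-18 and IL-33 are cytokines released by stressed, dying or activated cells, and all of them signal through paired receptors and the adaptor MyD88 to NF-κB. IL-1β and IL-18 are made as precursors that caspase-1 cuts in inflammasomes, while IL-1α and IL-33 lie in the nucleus and act as alarm signals when a cell is damaged. IL-1α and IL-1β bind the receptor encoded by Il1r1, Il1rn encodes an antagonist that occupies it, and Il1r2 encodes a decoy that binds the ligand without signalling. IL-18 uses Il18r1 with Il18rap and drives interferon gamma in NK and T cells, and IL-33 uses Il1rl1, also called ST2, which marks regulatory T cells of tissues, ILC2 and mast cells.

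In GRCm38, the build that the submitters' notes name as mm10, 5 of the 10 genes lie side by side on chromosome 1, all on the plus strand and with Il1rl2 among them, between 40074079 and 40551705. They are Il1r2 (40074079 to 40125231), Il1r1 (40225080 to 40317257), Il1rl1 (40429570 to 40465415), Il18r1 (40465552 to 40500854) and Il18rap (40515362 to 40551705). Il1a (129299610 to 129309972) and Il1b (129364570 to 129371139) are neighbours on the minus strand of chromosome 2, which also holds Il1rn (24336853 to 24351494). Il18 is on chromosome 9 (50554827 to 50581840) and Il33 on chromosome 19 (29925114 to 29960718).

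Il1a and Il1b are neighbours whose neutrophil values differed, and the Il18rap level of NK cells differed between doses, so the sequence around the start of these 3 genes is shown, from 150 bases before the start through the first 25 transcribed bases. The sequences are from RefSeq (GRCm38.p6), 5′ to 3′ on the gene's own strand, and each of these genes has 1 start listed there. Capitals mark the TATA box (TATAAA), the AP-1 motif (TGANTCA) and a core that ETS factors such as PU.1 bind (GAGGAA). These were searched on both strands together with the C/EBP motif (TTGCNNAA) and the T-box core (GGTGTGA), and none of the marked matches overlap. The regions are chr2:129309948-129310122 for Il1a (minus strand), chr2:129371115-129371289 for Il1b (minus strand) and chr1:40515212-40515386 for Il18rap (plus strand).
Il1a: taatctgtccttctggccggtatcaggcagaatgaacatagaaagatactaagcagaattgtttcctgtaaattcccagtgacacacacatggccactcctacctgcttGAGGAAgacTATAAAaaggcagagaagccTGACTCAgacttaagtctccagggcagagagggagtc
Il1b: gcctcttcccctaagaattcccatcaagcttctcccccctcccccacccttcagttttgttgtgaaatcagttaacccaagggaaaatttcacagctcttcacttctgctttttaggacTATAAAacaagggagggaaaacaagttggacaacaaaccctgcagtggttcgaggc
Il18rap: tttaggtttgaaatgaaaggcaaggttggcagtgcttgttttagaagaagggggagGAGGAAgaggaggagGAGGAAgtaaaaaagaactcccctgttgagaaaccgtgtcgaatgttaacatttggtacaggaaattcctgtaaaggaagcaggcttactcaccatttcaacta

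TATAAA stood 32 bases before the start of Il1a and 31 bases before that of Il1b, and TGACTCA 12 bases before the start of Il1a. Il18rap held GAGGAA at 94 and at 79 bases before its start. Among the 300-base windows of 27025 genes, 14.2% held the TATA box, 7.93% the AP-1 motif, 28.3% the ETS core, 10.8% the C/EBP motif and 3.96% the T-box core. A match is only a run of letters and was not tested as a site.

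After doublets were removed, the CD45-negative sort held 4164 cells at 4 Gy and 5693 at 0 Gy, and the CD45-positive sort 9000 and 5180. Library depth was 12448164 to 36423571 UMIs (unique molecular identifiers, 1 per captured RNA). Ptprc, which encodes CD45, stood at 8.99 CPM (4 Gy) and 12.9 CPM (0 Gy) among sorted negatives, against 916 and 859.5 CPM among positives, CPM being UMIs scaled to a common total. A cell entered a gate when it held at least 3 of the 8 markers of a class and more than of any other class. No gate used a gene of the interleukin 1 family. Ungated cells made up 2.16% and 2.78% of the CD45-negative and 6.1% and 5.52% of the CD45-positive libraries. From 3 to 17 barcodes were shared between any pair of libraries. Levels are UMIs of the gene summed over a gate and given as CPM of that gate, with an exact Poisson 95% interval. A ratio is the CPM at 4 Gy over the CPM at 0 Gy, with an exact conditional binomial 95% interval. Both cover counting error only, and with 1 library per group there is no measure of the spread between mice and no test.

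Doses were compared in the 14 gates that had 50 cells or more at each dose, 4 of them CD45-negative and 10 CD45-positive. Of the 100 pairs of a gene and a CD45-positive gate, 56 had at least 20 UMIs over both libraries. At a fold of 1.5 or more, 16 of the 56 were higher at 4 Gy, or 28.6%, where 10.3% of all gene and gate pairs were. At the same fold 6 were lower, or 10.7%, where 8.0% of all pairs were. The interval of the ratio left out 1 in 12 of the 16 higher and in 5 of the 6 lower pairs. Of the 40 CD45-negative pairs 6 had enough UMIs, 0 were higher and 2 were lower, and over all genes 10.4% were higher and 7.04% lower. The pairs share libraries and genes and are not independent. The genes were also chosen with earlier results of these data known, so these shares are a description and no test. The counts by gene were uneven. Il1r2 was higher in 5 and lower in 1 of 10 gates, and Il1b higher in 3 and lower in 1 of 10. Il18rap had a ratio above 1 in 9 of 9 gates, and Il1r1 a ratio below 1 in 4 of 4, but other settings turned some of these. With cells thinned to 1000 UMIs the direction turned for Il18rap in CD4 T cells (0.759) and for Il1r1 in venous cells (1.10). Il18rap also turned in cDC2 (0.834) without cells holding at least 3 markers of a second class. It turned as well in classical monocytes (0.849) in unsupervised clusters and in nonclassical monocytes (0.980) when a gate needed 4 markers.

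**Figure D1:**
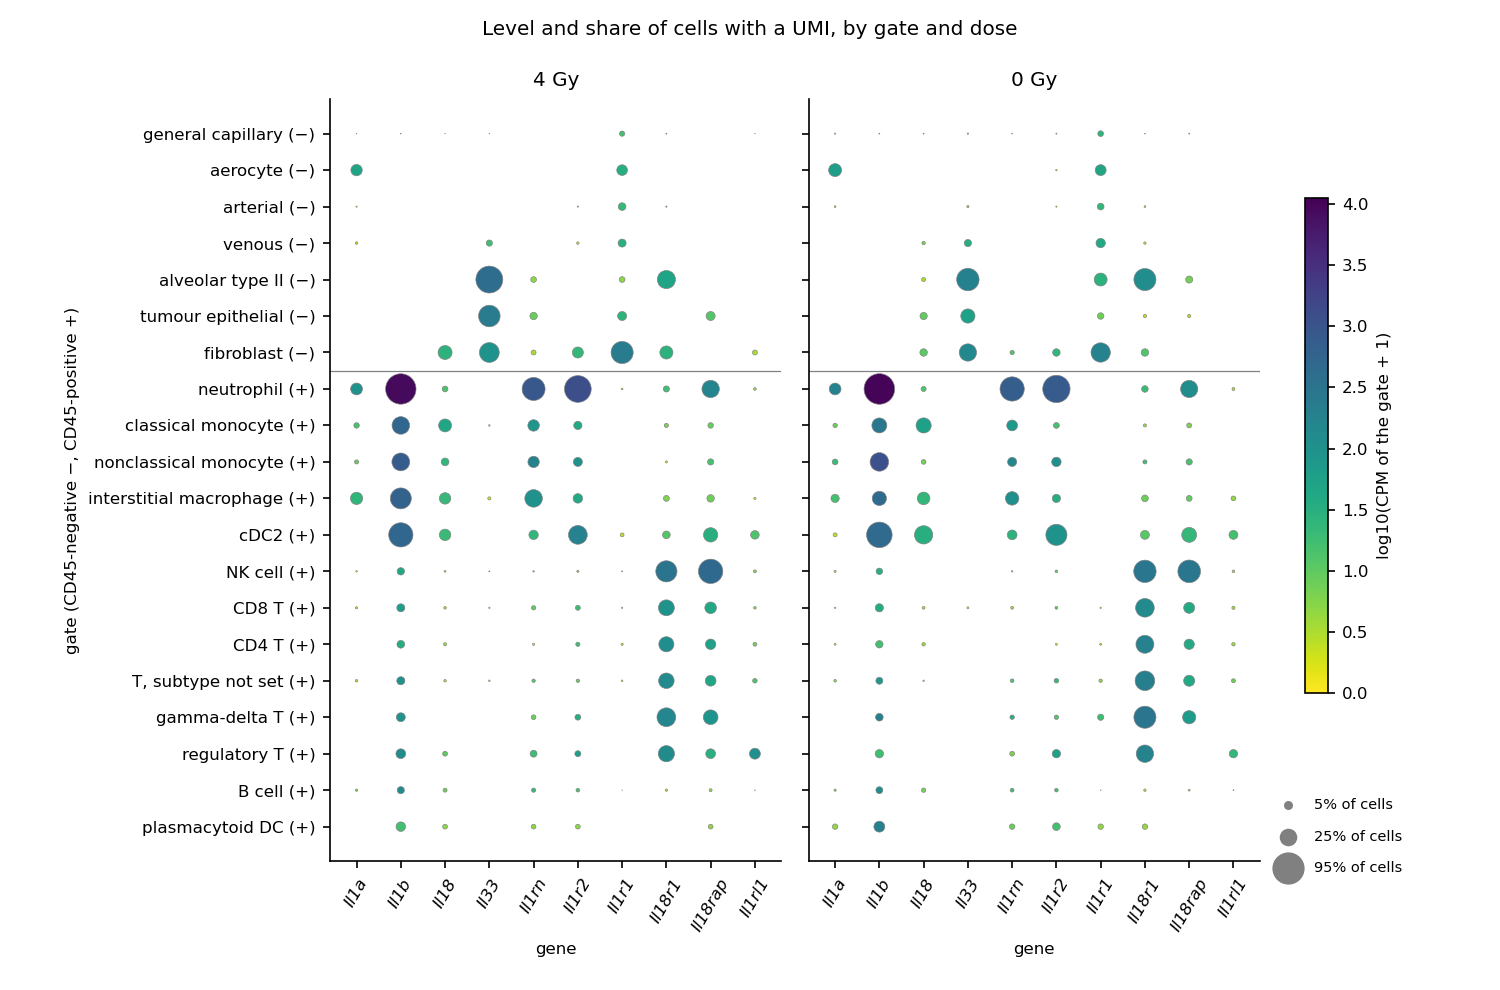
Level of the 10 genes (columns) in 20 gates (rows) at 4 Gy (left) and 0 Gy (right); colour is log10 of the CPM of the gate plus 1 and the area of a circle is the percent of cells with a UMI. Il1b, Il1rn and Il1r2 are deepest in the neutrophil gate, Il18rap in the NK cell gate, and Il33 in the alveolar type II gate.

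Il1b was by far the most abundant of these genes, and most of its RNA was in neutrophils. The neutrophil gate had 913 and 331 cells, which is 10.1% of leukocytes at 4 Gy and 6.39% at 0 Gy. The gate held 71.6% of the library's Il1b UMIs at 4 Gy and 65.1% at 0 Gy, and ungated cells held another 13.1% and 17.5%. Within the gate Il1b stood at 8955 CPM (8842 to 9070) at 4 Gy and at 10242 CPM at 0 Gy, a ratio of 0.874 (0.855 to 0.894). An Il1b UMI was found in 886 of 913 and in 325 of 331 neutrophils, and the median cell held 19 and 27 of them. The narrow interval comes from 23808 and 11938 UMIs, and in clusters made without these genes the ratio was 1.07.

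Il1a, the alarm-signal ligand encoded beside Il1b, was much scarcer in the same cells and lower at 4 Gy. It stood at 102 CPM (90.2 to 115) at 4 Gy and at 179 CPM (156 to 205) at 0 Gy, from 271 and 209 UMIs, a ratio of 0.569 (0.473 to 0.684). The share of neutrophils with an Il1a UMI was close to the same at both doses, 134 of 913 and 48 of 331. After thinning each cell to 1000 UMIs, 8.58% (6.78 to 10.7) and 9.35% (6.39 to 13.1) of cells had one. Among neutrophils with the chemokine gene Ccl3, 34.9% and 28.4% of the gate, Il1a was at 184 and 401 CPM, and among those without it at 37.6 and 56.0 CPM. Classical monocytes had 13.5 and 7.06 CPM of Il1a, a ratio of 1.92 (0.851 to 4.87), and interstitial macrophages 24.1 and 14.5 CPM, a ratio of 1.66 (0.861 to 3.46). The monocyte ratio turned to 0.664 for the mean of the cells' own CPM, and the macrophage ratio was 1.2 without cells holding at least 2 neutrophil markers and 7.57 without cells holding at least 3 markers of a second class. In the neutrophil gate 12.0% of all measured genes were lower by 1.5-fold or more.

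The antagonist and the decoy receptor were also neutrophil genes, and the summed level of both was higher at 4 Gy. Il1rn stood at 905 CPM (869 to 942) and 719 CPM (671 to 769), a ratio of 1.26 (1.16 to 1.36), under the fold of 1.5. A UMI of it was found in 505 of 913 and 204 of 331 neutrophils. The median cell was at 358 CPM of Il1rn at 4 Gy and 400 CPM at 0 Gy, the opposite direction. Among neutrophils with Ccl3, Il1rn was at 1453 and 1106 CPM, and among those without Ccl3 at 476 and 504 CPM. Il1r2 stood at 1195 CPM (1153 to 1237) and 796 CPM (746 to 849), a ratio of 1.5 (1.39 to 1.62), which is just at the threshold, and 8.98% of all genes in the gate were higher by that fold. Under 10 other settings the ratio ranged over 1.25 to 1.71 and reached 1.5 in 4. After thinning, an Il1r2 UMI was seen in 59.3% (56.0 to 62.7) of neutrophils at 4 Gy and in 48.3% (42.7 to 53.9) at 0 Gy. Its ratio was 1.44 in neutrophils with Ccl3 and 1.48 in those without. The summed level of the 8 neutrophil markers was itself higher at 4 Gy in this gate, 92030 and 66753 CPM, and its part in these differences was not tested.

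Monocytes, macrophages and dendritic cells carried Il1b at a lower level. In classical monocytes Il1b was at 507 CPM (476 to 538) at 4 Gy and 270 CPM (241 to 302) at 0 Gy, a ratio of 1.88 (1.65 to 2.14). That difference depended on how the cells were defined. It was 1.06 (0.802 to 1.42) among the 53 and 15 monocytes with S100a8 and 1.97 among those without it. In unsupervised clusters that took the same name the direction turned, with a ratio of 0.742. Nonclassical monocytes had 757 and 1138 CPM, a ratio of 0.665 (0.595 to 0.742), which was past the fold in 3 of 10 other settings. In that gate 85.3% and 84.7% of the Il1b UMIs lay in the 36 of 222 and 24 of 172 cells that also held at least 2 neutrophil markers. Without them the ratio was 0.675, from 87 and 112 UMIs. In interstitial macrophages Il1b was at 620 and 449 CPM, a ratio of 1.38 (1.23 to 1.56), with a UMI in 87 of 189 and 18 of 84 cells. At 0 Gy 1 cell held 187 of the 372 Il1b UMIs of this gate, while at 4 Gy the top cell held 92 of 1107. The level at 0 Gy thus rests largely on that 1 cell, which the counting interval does not cover. The ratio was 1.16 without cells holding at least 2 neutrophil markers, and 30.9 without cells holding at least 3 markers of a second class, from 139 and 2 UMIs. In cDC2, the dendritic cells that present antigen to CD4 T cells, it was at 526 and 463 CPM, a ratio of 1.14 (0.977 to 1.32), and without such second-class cells the ratio was 7.50, from 171 and 19 UMIs.

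Lymphocyte gates held Il1b at a low level. B cells, which should lack the gene, had 125 and 121 CPM with a UMI in 5.4% and 4.99% of cells, at a median of 2252 and 2770 UMIs per cell. There 70.4% and 81.1% of the Il1b UMIs lay in the 2.87% and 1.37% of B cells with at least 2 neutrophil markers. Every lymphocyte gate compared had less Il1b than this, with 34.4 and 15.5 CPM in CD4 T, 62.3 and 35.6 CPM in CD8 T, 41.8 and 30.1 CPM in NK and 95.1 and 76.5 CPM in T cells without a set subtype. The ratio was 2.22 in CD4 T and 1.75 in CD8 T cells, and in clusters made without these genes it was 1.005 and 1.2. Without cells holding at least 2 neutrophil markers, Il1b was at 19.2 and 15.8 CPM in CD4 T, 41.1 and 15.4 CPM in CD8 T and 39.5 and 23.6 CPM in B cells, with a ratio of 1.22, 2.67 and 1.67. Il1rn was at 9.26 and 3.13 CPM in CD8 T cells, against 20.4 and 16.7 CPM in B cells. Without those cells Il1rn was at 6.40 and 1.21 CPM in CD8 T and at 4.08 and 3.89 CPM in B cells, and in clusters the CD8 T ratio of 2.96 became 1.25. Il1r2 had 17.2 and 1.03 CPM in CD4 T, 17.8 and 9.79 CPM in CD8 T and 9.14 and 20.9 CPM in unset T cells, where B cells had 14.1 and 14.7 CPM. Thinned to 1000 UMIs, the lower ratio of unset T cells turned to 1.39. Cells with at least 2 neutrophil markers held 3 of the 22 Il1r2 UMIs of CD4 T cells at 4 Gy. The summed neutrophil markers were at 130 and 46.4 CPM in CD4 T, 78.2 and 39.1 CPM in CD8 T, 410 and 257 CPM in unset T cells and 193 and 375 CPM in B cells, and their part was not tested. Of the 16 pairs counted as higher, 5 are these lymphocyte values of Il1b, Il1r2 and Il1rn.

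In cDC2, Il1r2 was at 178 CPM at 4 Gy and 94.4 CPM at 0 Gy, a ratio of 1.88 (1.39 to 2.56), but in clusters the ratio was 1.24, under the fold, and without cells holding at least 3 markers of a second class it was 6.25, from 30 and 4 UMIs. Neutrophil markers summed to only 64.4 and 23.0 CPM there, and the 5 and 2 cells that held at least 2 of them had 22 of the 113 and 1 of the 74 Il1r2 UMIs. Classical monocytes had 41.6 and 14.1 CPM of Il1r2, a ratio of 2.94 (1.71 to 5.38), but 79.1% and 75% of those UMIs were in cells with at least 2 neutrophil markers, and in the clusters the ratio was 1.01. In nonclassical monocytes Il1r2 was at 104 and 112 CPM, with 93.8% and 95.8% of it in such cells.

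**Figure D2:**
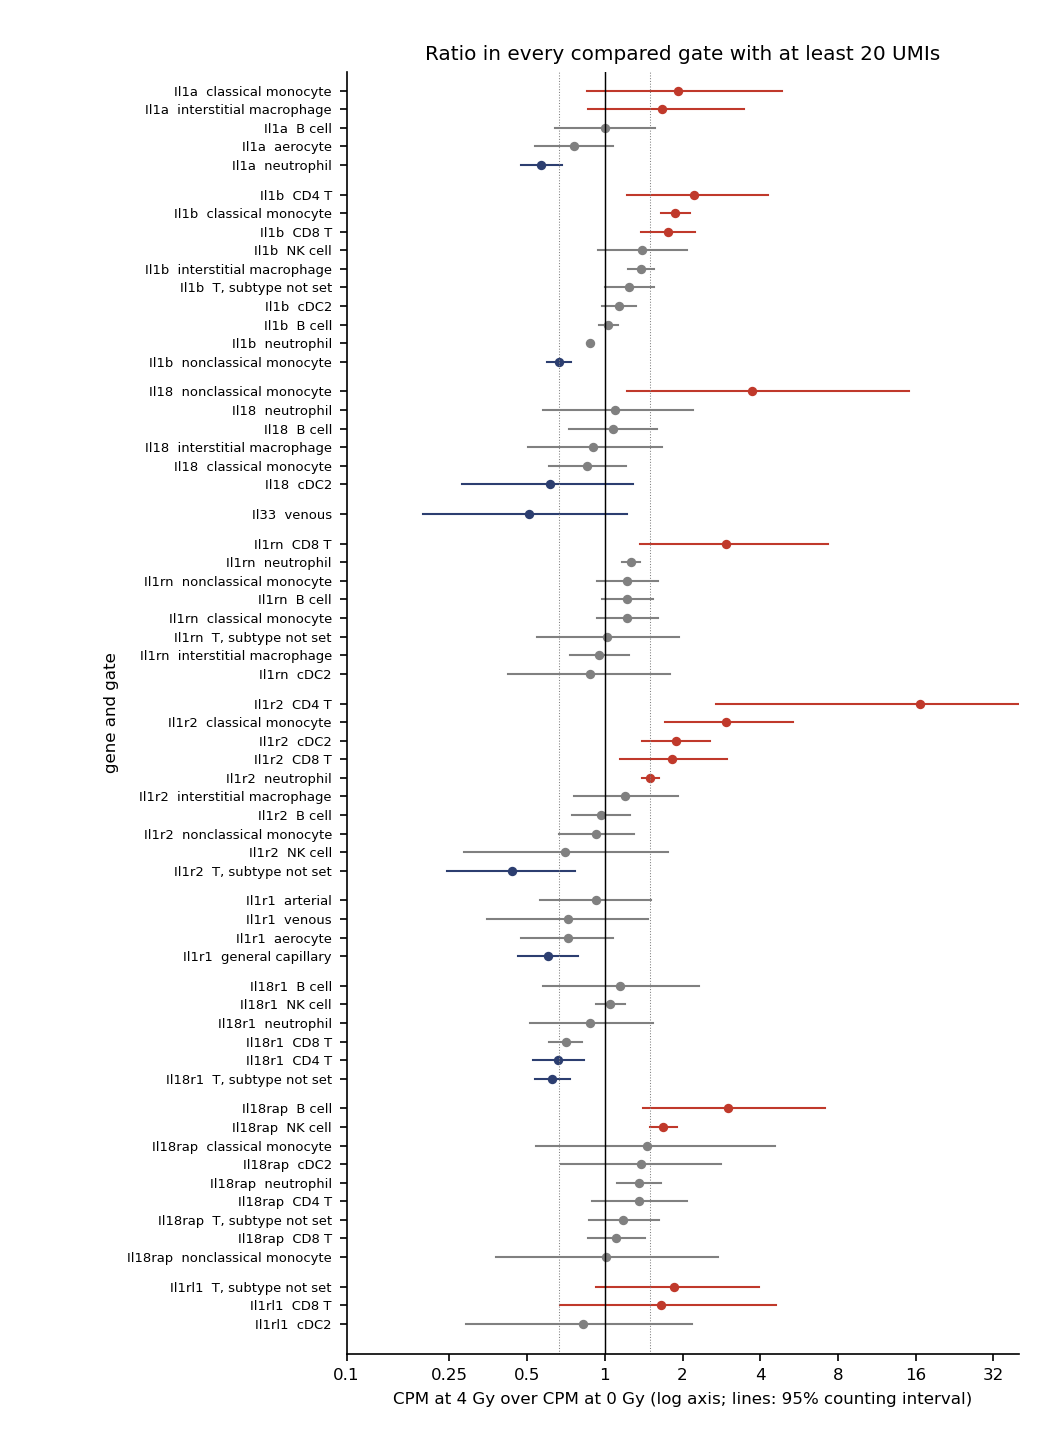
Ratio of CPM at 4 Gy over 0 Gy on a log axis for the 62 pairs of a gene and a compared gate with at least 20 UMIs; points are ratios, lines the 95% counting interval (clipped at the frame), dotted lines the fold of 1.5. Red pairs are higher and blue pairs lower at 4 Gy by that fold; Il18rap lies at or right of 1 throughout, Il1r1 left of it.

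In CD45-negative cells the ligand Il1a had a single home. Aerocytes, the large alveolar capillary cells that take part in gas exchange, held 87.7% of its UMIs at 4 Gy and 83.3% at 0 Gy. The level was 47.5 CPM (36.0 to 61.6) in 309 aerocytes at 4 Gy and 62.3 CPM (50.1 to 76.6) in 432 aerocytes at 0 Gy. The ratio of 0.763 had an interval that includes 1 (0.537 to 1.07). General capillary cells, with 2778 and 3888 cells, had 0.174 and 0.965 CPM, and arterial cells 0.557 and 1.31 CPM. The gap between aerocytes and the other capillary cells was thus present in both libraries. Of the aerocytes with Il1a, 8 of 42 and 12 of 76 also held its receptor gene Il1r1.

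Il18 was a gene of alveolar macrophages, the resident phagocytes of the airspace, which had few cells here. It stood at 406 CPM (323 to 504) in 39 of these cells at 4 Gy and at 273 CPM (189 to 382) in 16 cells at 0 Gy, a ratio of 1.48 (0.984 to 2.28), which turned to 0.895 without second-class cells. Classical monocytes had 44.5 and 52.1 CPM, a ratio of 0.854 (0.609 to 1.21). The CD45-negative sort also held 17 and 9 alveolar macrophages, too few for a described gate. They had 39 and 14 Il18 UMIs, or 45.3% and 10.9% of those in their libraries. With 102104 and 23248 UMIs of all genes in these cells, Il18 was relatively lower at 4 Gy there, opposite to the CD45-positive gate. Mesothelial cells, which line the pleura, had 88.7 and 111 CPM in 14 and 38 CD45-negative cells. Nonclassical monocytes had 23.1 CPM at 4 Gy and 6.22 CPM at 0 Gy, from 18 and 4 UMIs, a ratio of 3.71 (1.22 to 15.1), and the ratio stayed between 2.50 and 5.56 under each alternative that could be run. In cDC2 the direction was opposite, with 18.9 and 30.6 CPM and a ratio of 0.616 (0.281 to 1.28), from 12 and 24 UMIs, which was past the fold in 5 of 10 other settings.

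The genes of both IL-18 receptor chains, neighbours on chromosome 1, had different patterns in lymphocytes. Il18rap, the accessory chain needed for signalling, was highest in NK cells, at 478 CPM (449 to 509) in 860 cells at 4 Gy and 284 CPM (256 to 314) in 411 cells at 0 Gy. That is a ratio of 1.69 (1.5 to 1.90), from 984 and 377 UMIs, and 12.4% of all genes in the gate were higher by 1.5-fold or more. After thinning, 37.1% (33.8 to 40.5) and 23.8% (19.7 to 28.3) of NK cells had an Il18rap UMI. The level was higher both in NK cells with Klrg1, a marker of mature NK cells, at 584 and 310 CPM, and in those without it, at 437 and 271 CPM. Among the fewer NK cells with Cd27, a marker of less mature ones, the values were 327 and 262 CPM, a ratio of 1.25 (0.940 to 1.66). The level in NK cells stayed 1.61 to 1.75 times higher at 4 Gy under each of 10 other settings. Il18r1, the ligand-binding chain, showed no such difference in the same cells, at 306 CPM (283 to 331) and 292 CPM (264 to 322), a ratio of 1.05 (0.924 to 1.19). An UMI of both chains was seen in 272 of 860 and 131 of 411 NK cells.

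In T cells Il18r1 had a ratio below 1 in all 5 T cell gates, with an interval that leaves out 1 in 4 of them, while Il18rap had a ratio above 1 in the 4 gates where it reached 20 UMIs. T cells without a set subtype had 131 CPM (117 to 147) of Il18r1 at 4 Gy and 209 CPM (188 to 232) at 0 Gy, a ratio of 0.627 (0.538 to 0.732). CD4 T cells had 117 CPM (99.3 to 138) and 177 CPM (152 to 206), a ratio of 0.661 (0.528 to 0.828), which was past the fold in 3 of 10 other settings. The share of all genes lower by 1.5-fold was 8.4% in unset and 12.0% in CD4 T cells. CD8 T cells had 94.0 CPM (85.2 to 103) and 133 CPM (119 to 148), a ratio of 0.706 (0.610 to 0.817), which is under the fold of 1.5. Gamma-delta T cells, with 84 and 49 cells, had 157 and 294 CPM, a ratio of 0.532 (0.346 to 0.814), and regulatory T cells, with 80 and 41 cells, 125 and 174 CPM, a ratio of 0.715 (0.441 to 1.17). Il18rap in these gates had ratios of 1.18 in unset, 1.35 in CD4, 1.11 in CD8 and 1.26 in gamma-delta T cells, with intervals that include 1.

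The difference in Il18r1 was also seen within subsets of the CD8 gate. CD8 T cells with Ccl5, a gene of effector and memory cells, were 44.4% and 47.2% of the gate and had 128 and 180 CPM, a ratio of 0.708 (0.597 to 0.841). Those without Ccl5 had 56.1 and 76.6 CPM, a ratio of 0.732 (0.551 to 0.976). Ifng, a target gene of IL-18 in lymphocytes, was at 61.8 and 23.7 CPM in CD4 T cells, a ratio of 2.61 (1.62 to 4.34). Of 5 targets measured there 1, Ifng, was higher and 1 was lower, where 8.94% and 12.0% of all genes were. In NK cells 0 of 8 measured targets were higher and 1, Cxcl2, was lower. In CD8 T cells 1 of 8, Ptgs2, was higher and 0 were lower. Ifng was thus past the fold in neither NK nor CD8 T cells, and a link to the receptor genes was not tested.

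**Figure D3:**
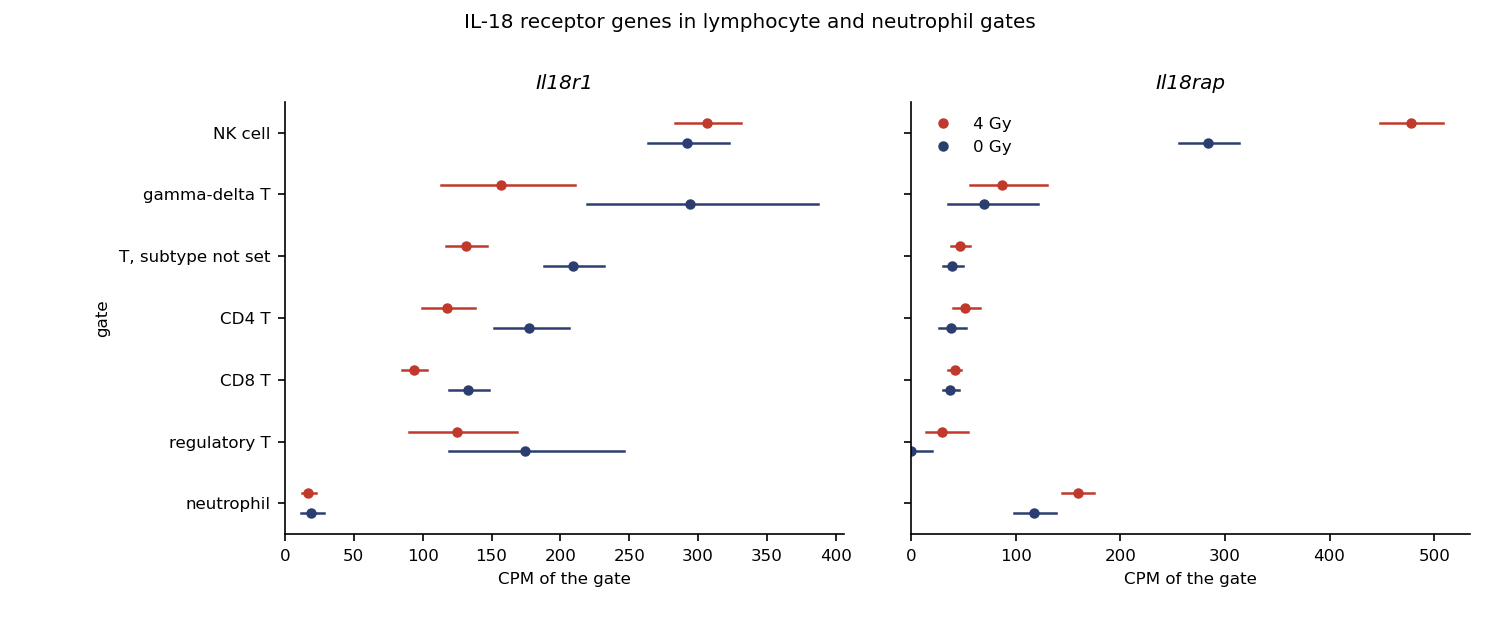
Levels of Il18r1 (left) and Il18rap (right) in CPM of the gate for 7 CD45-positive gates, with 4 Gy (red) above 0 Gy (blue); lines are exact Poisson 95% intervals. Il18r1 is lower at 4 Gy in the 5 T cell gates and alike in NK cells, while Il18rap in NK cells is at 478 CPM at 4 Gy and 284 CPM at 0 Gy.

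Neutrophils had the accessory chain with little of its partner. Il18rap stood at 159 CPM (144 to 175) at 4 Gy and 118 CPM (98.7 to 139) at 0 Gy, a ratio of 1.35 (1.11 to 1.65), second only to NK cells among CD45-positive gates. Il18r1 was at 16.6 and 18.9 CPM in the same gate, and 19 of the 289 and 8 of the 103 neutrophils with Il18rap had a UMI of it. B cells had 3.51 and 1.17 CPM of Il18rap, a ratio of 3.00 (1.41 to 7.12), from 34 and 9 UMIs, and 1.38 for CPM + 5. Il1rap, the accessory chain of the IL-1 and IL-33 receptors, was at 127 and 114 CPM in neutrophils, a ratio of 1.11 (0.909 to 1.37).

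Il18r1 was present outside the blood lineage too. In the CD45-negative libraries its highest levels were in alveolar type I cells, the thin gas-exchange epithelium, at 350 and 558 CPM in 15 and 20 cells, a ratio of 0.627 (0.339 to 1.15). Mesothelial cells had 287 and 207 CPM, a ratio of 1.39 (1.04 to 1.84), and ciliated cells 167 and 264 CPM in 28 and 19 cells, a ratio of 0.632 (0.402 to 0.996). Alveolar type II cells had 48.0 and 118 CPM, a ratio of 0.406 (0.198 to 0.767), from 12 and 56 UMIs, and 0.721 in clusters. Il18rap was nearly absent from these cells, with 10 UMIs in the whole CD45-negative library at 4 Gy and 20 at 0 Gy.

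Il33 was an epithelial, mesothelial and fibroblast gene. Alveolar type II cells, which make surfactant and are a main source of IL-33 in mouse lung, had 408 CPM (333 to 495) in 29 cells at 4 Gy and 190 CPM (153 to 233) in 57 cells at 0 Gy, a ratio of 2.15 (1.60 to 2.89), and of 1.45 for the mean of the cells' own CPM. A UMI was found in 22 of 29 and 30 of 57 cells, and the top 3 of the 29 cells held 53.9% of the UMIs at 4 Gy. The gate named tumour epithelial from keratin and Cdkn2a markers had 238 CPM (183 to 304) in 35 cells and 53.3 CPM (36.2 to 75.6) in 90 cells, a ratio of 4.46 (2.86 to 7.10). A UMI was found in 17 of 35 and 19 of 90 of these cells, at a median depth of 4677 and 2480 UMIs per cell. At 4 Gy 1 cell held 25 of the 63 Il33 UMIs, and the top 4 of the 35 cells held 61.9%. At 0 Gy the top 9 of the 90 cells held 67.7%. Markers of other epithelium stood higher in that gate at 4 Gy too, 113 and 58.4 CPM for the alveolar type II list, 291 and 67.0 CPM for the alveolar type I list and 627 and 125 CPM for the club list. At 4 Gy the type II markers Sftpb, Etv5, Slc34a2 and Napsa were at 0, and whether normal epithelial cells take part in the difference was not tested. Fibroblasts had 94.2 and 146 CPM in 39 and 51 cells, a ratio of 0.645 (0.420 to 0.981) that was past the fold in 6 of 10 other settings, and mesothelial cells 142 and 175 CPM, a ratio of 0.811 (0.551 to 1.17). Venous endothelium was the only vascular gate with 20 UMIs of Il33 in both libraries together, at 16.4 and 32.3 CPM from 9 and 16 UMIs, a ratio of 0.508 that turned to 1.10 with thinned cells. The CD45-positive libraries held 41 and 8 UMIs of Il33 in all.

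Il1r1, through which IL-1 acts on vessels and stroma, had its top level in fibroblasts at 4 Gy and in mesothelial cells at 0 Gy. Fibroblasts had 229 and 180 CPM, a ratio of 1.27 (0.930 to 1.75), which turned to 0.527 with thinned cells (3 and 7 UMIs) and to 0.954 in clusters, and was 2.55 without second-class cells (2 and 1 UMIs). Mesothelial cells had 53.2 and 202 CPM in 14 and 38 cells, a ratio of 0.263 (0.143 to 0.450), which turned to 1.09 with thinned cells (2 and 5 UMIs). Among the 4 endothelial gates compared, aerocytes had 33.4 and 46.4 CPM and venous cells 29.1 and 40.3 CPM. Arterial cells had 20.6 and 22.4 CPM and general capillary cells 15.2 and 25.1 CPM. As reported, general capillary cells had the only ratio past the fold, 0.605 (0.463 to 0.785) from 87 and 182 UMIs. In that gate 7.14% of all genes were lower by that fold. The ratio of Il1r1 was past the fold in 4 of 10 other settings. Thinned to 1000 UMIs, 1.52% (1.09 to 2.06) and 1.92% (1.5 to 2.43) of general capillary cells had a UMI of it, and the ratio of the mean of the cells' own CPM was 0.735. In clusters made without these genes, 1 cluster held 2199 cells of 4 Gy and 90 of 0 Gy, and the general capillary ratio of Il1r1 was 0.805. Aerocytes and venous cells had ratios of 0.719 and 0.723 and arterial cells 0.922, with intervals that include 1. Other settings moved these as well. The arterial ratio was 0.296 in clusters, the aerocyte ratio 0.442 with thinned cells, and the venous ratio lay between 0.498 and 1.10.

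**Figure D4:**
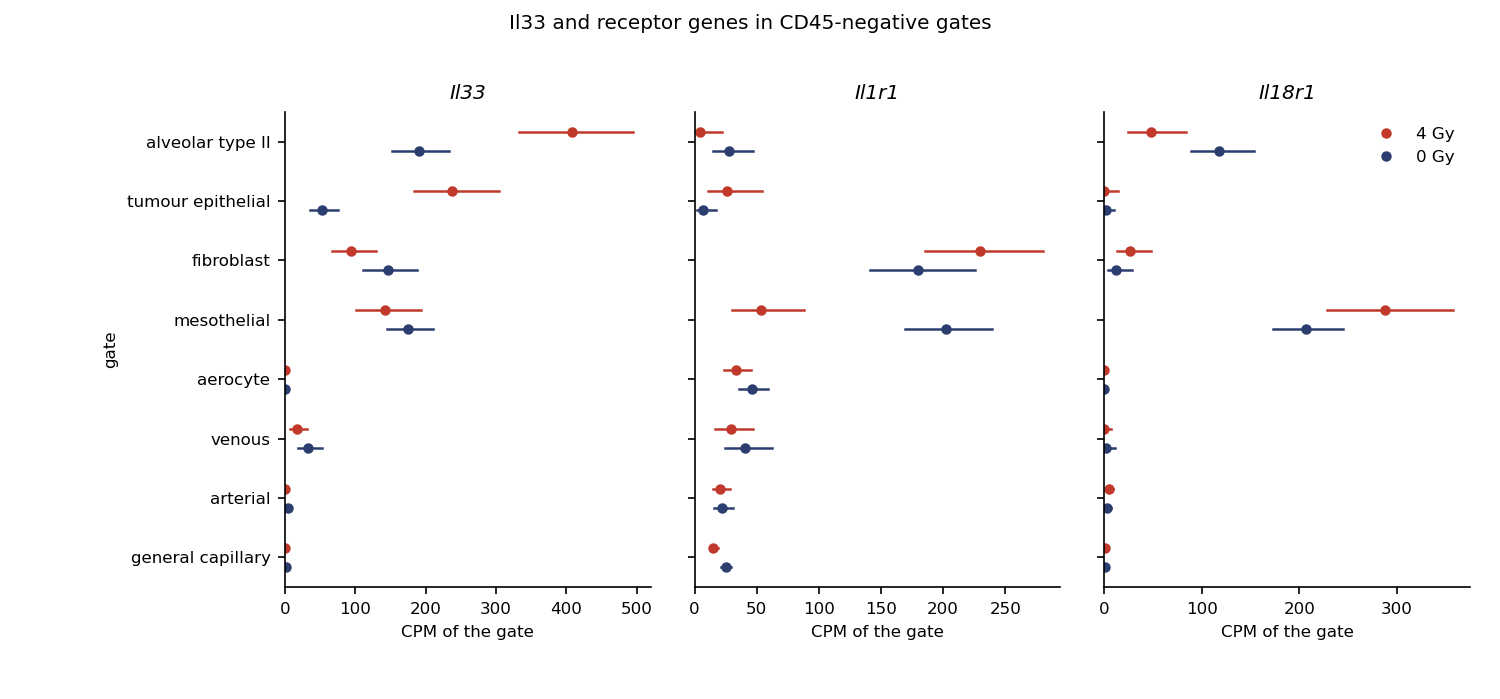
Levels of Il33, Il1r1 and Il18r1 in CPM of the gate for 8 CD45-negative gates, with 4 Gy (red) above 0 Gy (blue) and exact Poisson 95% intervals. Il33 is at 408 CPM at 4 Gy and 190 CPM at 0 Gy in alveolar type II cells, and Il1r1 is highest in fibroblasts at 4 Gy and in mesothelial cells at 0 Gy.

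Il1rl1, the IL-33 receptor gene, was the scarcest member. Its highest level was in regulatory T cells, at 113 CPM (79.8 to 155) at 4 Gy and 21.8 CPM (5.94 to 55.8) at 0 Gy, a ratio of 5.17 (1.86 to 20). These values rest on 38 UMIs in 10 of 80 cells and 4 UMIs in 3 of 41 cells, and the top 8 cells held 94.7% of the UMIs at 4 Gy. T cells without a set subtype had 12.9 and 6.95 CPM, a ratio of 1.85 (0.924 to 3.96), and CD8 T cells 4.52 and 2.74 CPM, a ratio of 1.65 that turned to 0.485 with thinned cells. In cDC2 it was at 12.6 and 15.3 CPM. Outside the blood lineage 3 UMIs of it were found at 4 Gy and 2 at 0 Gy. ILC2 and basophils, which are known for ST2, were too few for a gate.

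The other genes of the pathway were taken from a list of 41, of which 34 were in the tables, and targets from a list of 18, of which 15 were. Over all genes the share higher and the share lower by 1.5-fold or more, at 4 Gy relative to 0 Gy, were 11.3% and 5.72% in aerocytes, 10.8% and 6.13% in arterial, 8.13% and 7.14% in general capillary and 13% and 9.87% in venous cells. They were 8.74% and 4.52% in B, 8.94% and 12.0% in CD4 T, 9.95% and 6.08% in CD8 T, 8.86% and 8.4% in unset T and 12.4% and 5.32% in NK cells. In myeloid cells they were 12.3% and 10.3% in cDC2, 12.8% and 6.09% in classical and 9.74% and 9.73% in nonclassical monocytes, 11.7% and 8.84% in interstitial macrophages and 8.98% and 12.0% in neutrophils. In neutrophils 4 of 31 measured pathway genes were higher and 2 lower, with a median log2 ratio of -0.07 against -0.04 over all genes. Nlrp3, the sensor of the inflammasome that activates caspase-1, was one of the lower ones at 224 and 354 CPM, a ratio of 0.632 (0.556 to 0.718). Casp1 and Gsdmd, which encode the protease and the pore that release IL-1β, were at 54.9 and 48.9 CPM and at 72.6 and 76.4 CPM there, with intervals that include 1. Il18bp, the secreted inhibitor of IL-18, was at 56.4 and 34.3 CPM in neutrophils, a ratio of 1.64 (1.15 to 2.39), and at 21.5 and 34.4 CPM in general capillary cells, a ratio of 0.623 (0.498 to 0.776). Sigirr, an inhibitory receptor of the family, was at 38.4 and 59.4 CPM in NK cells, a ratio of 0.646 (0.467 to 0.893).

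Among targets in neutrophils, 2 of 11 measured were higher and 3 lower. Lcn2, an iron-binding granule protein gene, was at 1293 and 726 CPM, Ccl2, a monocyte chemokine gene, at 16.9 and 81.5 CPM, and Tnfaip3, an inhibitor of NF-κB, at 93.3 and 164 CPM. In general capillary cells 1 of 7 targets was higher and 2 were lower. Icam1, an adhesion molecule gene of activated endothelium, was at 59.8 and 28.9 CPM, a ratio of 2.07 (1.74 to 2.47), while Ccl2 had 0.872 and 9.65 CPM and Saa3, an acute phase gene, 1.22 and 5.51 CPM. In classical monocytes 3 of 10 targets were higher and 0 lower. Cxcl2, a neutrophil chemokine gene, was at 170 and 62.7 CPM, Ccl2 at 86.0 and 38.8 CPM and Lcn2 at 17.9 and 7.06 CPM. Cxcl2 was at 12.6 and 81.6 CPM in cDC2 and at 92.9 and 203 CPM in interstitial macrophages. Saa3 was also lower in venous cells, at 38.2 and 111 CPM. It was higher in B cells, at 26.9 and 2.60 CPM, and in unset T cells, at 19.5 and 1.16 CPM. In venous cells 3 of 5 targets were higher and 1 lower. In CD4 T cells 3 of 21 pathway genes were higher and 2 lower, and in NK cells 2 of 23 were higher and 1 lower. Interstitial macrophages had 6 of 29 higher and 1 lower, classical monocytes 4 of 31 and 1, and nonclassical monocytes 4 of 23 and 2. Over the 14 gates the median log2 ratio of the pathway list lay between -0.10 and 0.15 and that of all genes between -0.06 and 0.06.

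Genes with the most similar pattern were found by Pearson r of log2(CPM + 5) over 28 points (14 gates in 2 libraries each). The points share libraries and cell types, so r is a description. For Il1b they were Cd300lf (0.968), Ccr1 (0.967) and Ncf1 (0.961), for Il1rn Tlr6, Clec4e and Cd33 (0.974 to 0.971), and for Il1r2 Siglece, Kif3b and Gm31718 (0.961 to 0.954). For Il1a they were Gadd45b (0.922), Grina (0.907) and Il1rap (0.893). Il18r1 was most like Ctsw, Txk and Sh2d1a (0.977 to 0.972), Il18rap most like Gramd1b (0.885), Gm36723 (0.881) and Slc9a3r1 (0.875), and Il1r1 most like Emcn, Bcam and Cavin3 (0.984 to 0.983). Il18 was most like Ifi211 (0.933), Gm46224 (0.927) and Ifi205 (0.921). Il33 was most like Tmem45a, Mir100hg and Dnm3os (0.984 to 0.969), but it was near 0 in nearly all of these gates. Il1rl1 did not reach the 20 CPM that the measure needs.

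**Figure D5:**
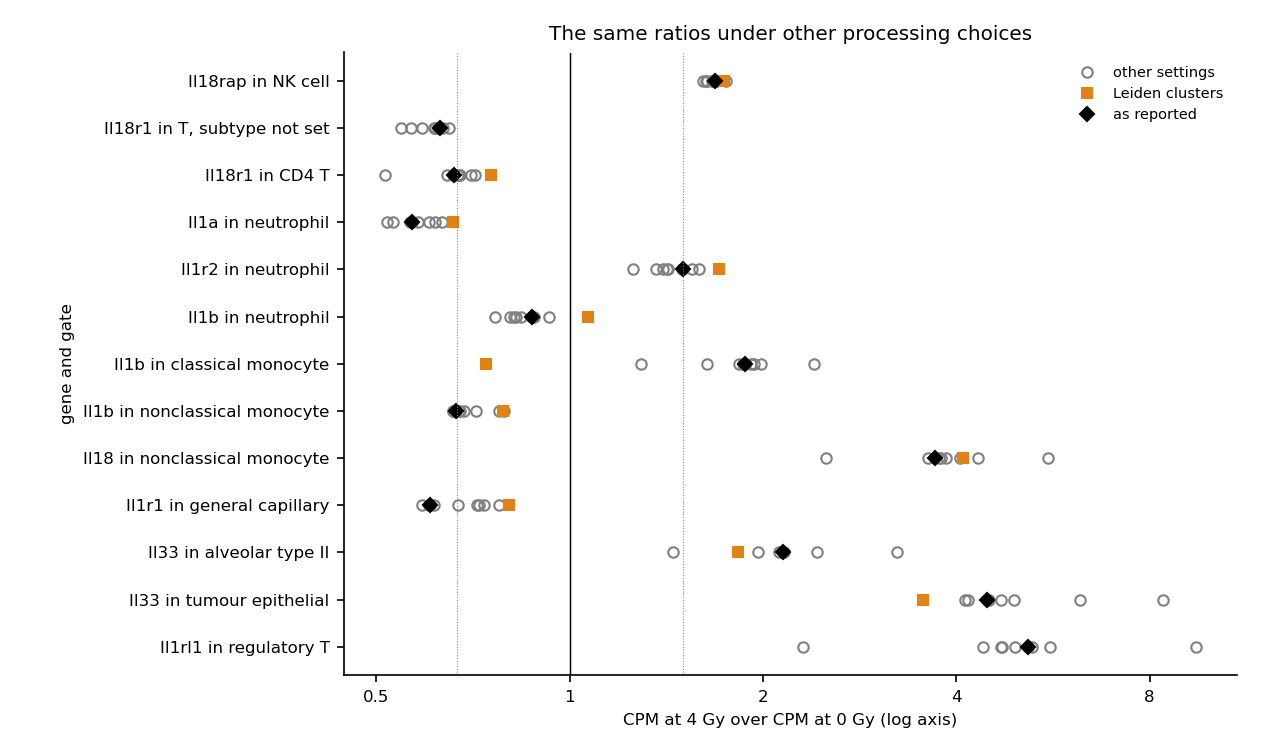
Ratio of CPM at 4 Gy over 0 Gy on a log axis for 13 pairs of a gene and a gate as reported (diamonds), in clusters made without these genes (squares) and under the other settings (circles). Il18rap in NK cells lies between 1.61 and 1.75 in each of them, while Il1b in classical monocytes is at 1.88 as reported and at 0.742 in the clusters.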

How the data were processed

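The authors deposited 1 table per library, cells by genes, with log2 values. Undoing log2(CPM + 1) gives the same total in every cell, the one CPM values have, so the authors' values are on that scale. At least 99.999% of them were whole multiples of 1 step per cell (tolerance 0.02), and whole UMI counts were worked out from that step. Per the submitters' processing notes STAR, Partek, Seurat and the build mm10 were used, with no role or version recorded. The plan had foreseen count tables.

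Doublets were scored with Scrublet in scanpy 1.11.5 (Python 3.11.15, expected rate 0.8% per 1000 cells), and 149 and 286 CD45-negative and 608 and 235 CD45-positive barcodes were removed at 4 Gy and 0 Gy. The automatic threshold served only in the CD45-positive library of 4 Gy. In the others it marked under 0.5%, so barcodes were removed from the top of the score until the expected rate was reached. Gates used 25 lists of 8 markers, 5 of which were missing from the tables. Endothelial cells with at least 3 of 6 aerocyte, arterial, venous or lymphatic markers went to that gate first and otherwise to general capillary with at least 2, a precedence chosen after gate sizes were seen. T cells were split by Foxp3, Cd8a or Cd8b1, Cd4 and Trdc, and many had no UMI of these.

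UMIs were summed per gate and library. Gates of 50 cells or more in both libraries were compared, smaller ones described. A gene was measured with at least 20 UMIs over both libraries and counted as higher or lower from 1.5-fold in CPM. No test was possible with 1 library per group. Intervals of levels and ratios are as given with the results, and shares carry exact Clopper-Pearson 95% intervals. All cover counting error only. Splits by Ccl3, Ccl5, Cd27, Klrg1 and S100a8, and the settings that leave out cells with neutrophil markers or markers of a second class, were chosen after seeing the data. The ratio and its interval were tried on simulated counts that held counting error only, for genes with many UMIs and a large fold. The simulation had no spread between cells or mice, so it does not bear on that spread or on scarce genes. Positions are from the GENCODE M21 annotation. Named genes were the 10 members, up to 4 list genes per compared gate with the largest change past 1.5-fold, and the 3 genes with the most similar pattern. Further genes of the lists (Casp1, Gsdmd, Nlrp3, Il18bp, Il1rap and Sigirr) were named for their role whatever their change. The members and lists were chosen with earlier results of these data known.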

Additional observations from a re-analysis of the deposited data

Results flagged for a closer look

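For 4 genes the ratio of 4 Gy over 0 Gy was 1.5-fold or more upwards in at least 1 CD45-positive gate and downwards in another. With 1 library per group none of these differences between gates was tested. Il1b had 2.22 in CD4 T cells, 1.75 in CD8 T cells and 1.88 in classical monocytes, against 0.665 in nonclassical monocytes. In clusters the CD4 and CD8 T cell ratios were 1.005 and 1.2. Il1a had 1.92 in classical monocytes (28 and 8 UMIs) and 1.66 in interstitial macrophages (43 and 12 UMIs), against 0.569 in neutrophils. Il1r2 had 16.7 in CD4 T cells, 1.82 in CD8 T cells, 1.88 in cDC2, 2.94 in classical monocytes and 1.5 in neutrophils, against 0.438 in T cells without a set subtype, and the 16.7 sets 22 UMIs against 1, with an interval of 2.70 to 689. Il18 had 3.71 in nonclassical monocytes (18 and 4 UMIs) and 0.616 in cDC2 (12 and 24 UMIs).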

How the results depend on the processing

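No paired analysis was possible because each group is 1 library. Of 815 values recomputed under 10 alternatives to the processing, 678 stayed within the counting interval of the reported ratio, 126 moved out of it and 11, of pairs past the fold, reversed. Among pairs under the fold, 59 of 465 values turned direction. The counts of pairs past the fold were made anew in each setting, over the pairs that then reached the minimum of UMIs. The share over all genes was not worked out under these settings, so a lower count is not by itself a loss of calls. In CD45-positive cells the 16 higher pairs became 7 with cells thinned to 1000 UMIs, 9 with at least 50 UMIs and 10 without cells holding 3 or more markers of a second class, and the 6 lower pairs became 2 in Leiden clusters. In CD45-negative cells the 2 lower pairs became 1 with a gate lead of 2 markers, in Leiden clusters, for the ratio of CPM + 5, with at least 50 UMIs and without second-class cells, and 4 with at least 10 UMIs, which also gave 1 higher pair.

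Reversed ratios were as follows, and the cause was not tested. A gate lead of 2 markers gave 1.28 for Il1b in gamma-delta T cells. Thinning gave 1.09 for Il1r1 in mesothelial cells, 1.10 for Il33 in venous cells, 0.485 for Il1rl1 in CD8 T cells and 1.39 for Il1r2 in unset T cells. The mean of the cells' own CPM gave 0.664 for Il1a in classical monocytes. Leiden clusters gave 0.511 for Il1rl1 in CD8 T cells and 0.742 for Il1b in classical monocytes. Leaving out cells with neutrophil markers gave 1.22 for Il1b in plasmacytoid dendritic cells, and leaving out second-class cells gave 4.02 for Il1r2 in unset T cells and 1.08 for Il1b in gamma-delta T cells.

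Il18rap in NK cells stayed between 1.61 and 1.75, Il1a in neutrophils between 0.519 and 0.659 and Il18r1 in unset T cells between 0.547 and 0.649. Il18r1 in CD4 T cells lay between 0.515 and 0.755 (past the fold in 3 of 10) and Il1r1 in general capillary cells between 0.588 and 0.805 (in 4 of 10). Il1r2 in neutrophils lay between 1.25 and 1.71.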
